A study of Mus musculus with 29 samples.

Results

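The genes described here are 40 genes of monocytes, macrophages and other phagocytes, chosen by name as genes of this lineage. They cover markers of the whole lineage, of tissue-resident macrophages and of monocytes, Fc receptors and their adaptors, scavenger and TAM receptors, lysosomal proteins, and enzymes of lipid, arginine, haem and iron handling. A gene was measured where a probe set of the array (a group of short probes against one transcript) was annotated to it and to no other gene, and the probe set of highest mean stood for it. Of the 40 genes, 39 were measured in this way, among 18193 genes in all. Ly6c1 was measured only by a probe set it shares with Ly6c2 and stands outside the tests.

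The samples came from TH-MYCN mice, in which a tyrosine hydroxylase promoter drives MYCN in the sympathoadrenal lineage and neuroblastoma develops, and all were labelled as strain 129X1/SvJ. The groups were 17 caspase-8 deficient tumours, 7 tumours wild type for caspase-8, 3 deficient and 2 wild type bone marrow samples. All tumours were primary and abdominal, and each sample was hybridised to 1 mouse 3' expression array from 100 ng of total RNA. Caspase-8 is an initiator protease of death receptor signalling, and neither how it was removed nor the age of the animals is given in the sources used here. Nothing in the labels states that different samples are different animals, and the p-values cover no more than sample-to-sample spread.

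Monocytes leave the bone marrow and can become macrophages in tissues, while other tissue macrophages are seeded before birth and renew themselves locally. Both depend on signals through the receptor Csf1r and on the transcription factor PU.1, the product of Spi1. They take up antibody-coated particles through Fc receptors, dying cells through TAM and scavenger receptors, and digest them in lysosomes. In neuroblastoma macrophages are a regular part of the stroma, while the marrow is the site where monocytes and neutrophils are made.

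Values are log2 signals after RMA, so a difference of 1 means a signal 2 times as high. The Casp8 signal was 5.62 ± 0.44 in deficient tumours (SD, n = 17) and 5.88 ± 0.57 in wild type tumours (SD, n = 7), a log2 difference of -0.26 (SE 0.20) that did not pass the test. In deficient marrow it was 9.01 to 9.24 (3 samples) and in wild type marrow 9.30 and 9.62, and the part of the gene that was removed is not known here, so the probe set may not check the label. As a check of the tissue labels, the mean of 7 neuroblast markers lay between 9.12 and 10.35 in tumours and between 4.10 and 4.24 in marrow. The mean of 9 neutrophil markers lay between 3.68 and 5.34 in tumours and between 12.14 and 12.47 in marrow. Neutrophil precursors express several of the phagocyte genes, Fcer1g, Tyrobp, Fcgr3, Cd14 and Lyz2 among them, and their part in the tissue differences below was not tested. In whole tissue, fewer cells of a type and less RNA per cell cannot be told apart.

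Tumours and marrow were compared first, to see where each group of phagocyte genes was higher. By limma, fitted over all genes with Benjamini-Hochberg adjustment and a threshold of 0.05 (called), 18 of 39 members were lower in tumours and 9 were higher. Of all genes 76.4% were called in one direction or the other, 42.2% lower and 34.2% higher, so being called lower was about as common among the members as among all genes (46.2% of members). A called difference of at least 2-fold was found downwards for 16 members, 41.0% of them, against 12.6% of all genes. Upwards it was found for 5 members, 12.8%, against 16.8% of all genes. The median difference was -0.34 over the members and -0.10 over all genes. All 5 marrow samples and 14 of the tumours belong to the higher of 2 series of sample numbers in the titles, which may mark batches. Without the 10 tumours of the lower series 9 members were again called higher and 18 lower, with Folr2 losing the call (0.41, limma adjusted p = 0.0638) and Marco gaining it (1.12, limma adjusted p = 0.0254). The plot of differences by role shows the spread within each group.

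**Figure D1:**
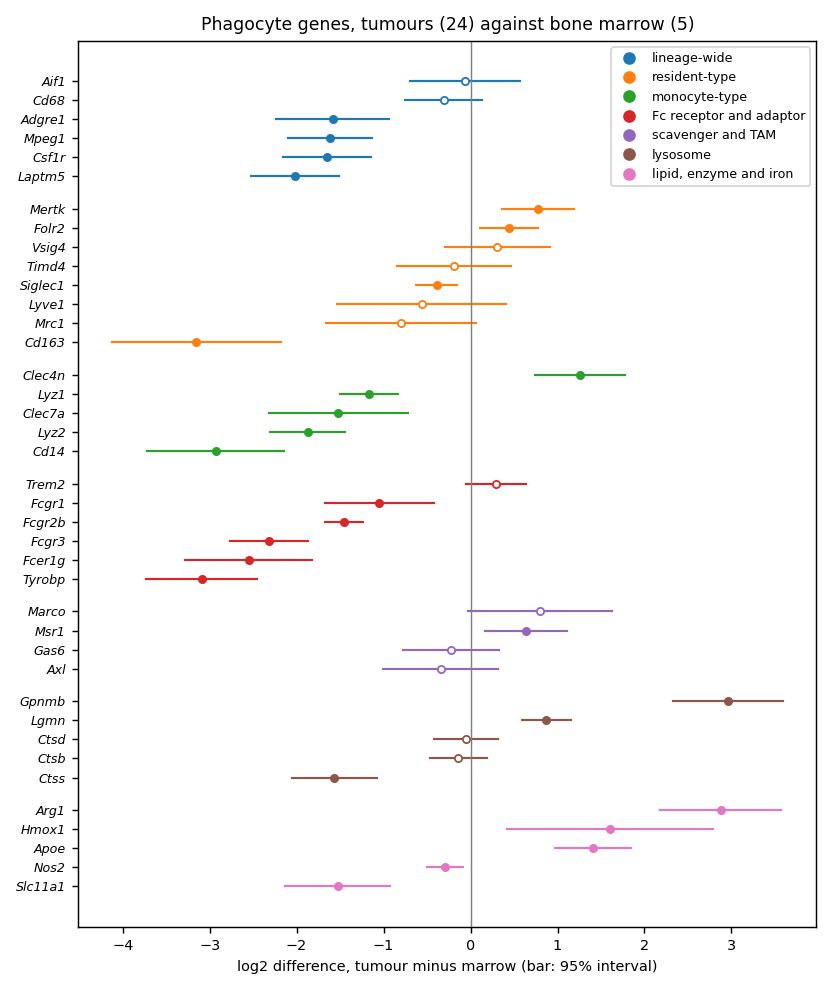
Log2 difference of 39 phagocyte genes, tumour minus marrow, averaged over both genotypes, with the 95% interval from limma; filled points passed an adjusted p of 0.05, open points did not, and colours mark the role. Fc receptor and adaptor genes lie on the left apart from Trem2, while Gpnmb, Arg1, Hmox1, Apoe and Clec4n lie at or beyond 1 on the right.

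Of the 6 lineage-wide genes, 4 were lower in tumours by 2-fold or more and the other two, Cd68 and Aif1, were not called. Csf1r, the receptor for the growth factors CSF1 and IL-34, ran from 7.73 to 10.43 in the 24 tumours (median 9.10), against 10.75, 10.85 and 10.71 in deficient marrow and 10.57 and 11.09 in wild type marrow. Every tumour lay below every marrow sample, as for 9 members in all (23.1%, against 16.9% of all genes). The Csf1r difference was -1.65 (SE 0.25, 3.14-fold lower, limma adjusted p = 6.56e-07). Mpeg1, which encodes the pore-forming protein perforin-2 of phagosomes, ran from 8.83 to 11.12 in tumours (median 9.51), against 11.14 to 11.54 in marrow, again without overlap (difference -1.61, SE 0.24). Laptm5, a lysosomal membrane protein of blood cells, was lower by 2.02 on the log2 scale (SE 0.25), with 23 of 24 tumours below all marrow samples. Adgre1, which encodes an adhesion receptor of mature macrophages, had a difference of -1.59 (SE 0.32), and there too the single tumour within the marrow range was wild type tumour 1, at 8.58. Cd68, a lysosomal glycoprotein, averaged 7.98 ± 0.47 in tumours (SD, n = 24) and 8.35 ± 0.13 in marrow (SD, n = 5). Aif1, which encodes the actin-binding protein IBA1, averaged 6.48 ± 0.62 in tumours and 6.56 ± 0.66 in marrow. Without wild type tumour 1 the Cd68 difference was called (-0.41, limma adjusted p = 0.0378), and with all tumours it was -0.31. In wild type samples alone, 7 tumours against 2 marrow samples, the calls of Adgre1 (-1.36), and of Mertk, Clec7a and Slc11a1 below, were lost with the sign kept (limma adjusted p between 0.0554 and 0.0630).

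The 8 resident-type genes split, with 2 higher, 2 lower and 4 not called. Cd163, the receptor for haptoglobin-bound haemoglobin, ran from 2.73 to 6.58 in tumours (median 3.97), against 6.93, 7.98 and 6.26 in deficient marrow and 7.79 and 7.54 in wild type marrow. Only wild type tumour 6, at 6.58, reached the marrow range. The difference was -3.15 (SE 0.47, limma adjusted p = 8.15e-07), with a tumour mean of 4.22, low on the scale, where RMA compresses differences. Mertk, a TAM receptor for uptake of dying cells, ran from 5.73 to 7.76 in tumours (median 6.62), against 5.43, 6.27 and 5.80 in deficient marrow and 5.91 and 5.71 in wild type marrow. It was higher in tumours by 0.78 (SE 0.20, limma adjusted p = 0.00115), and 17 of 24 tumours lay above all marrow samples. Folr2, a folate receptor of resident macrophages, was higher by 0.44 (SE 0.16), but lost the call in deficient samples alone (0.41, limma adjusted p = 0.104), with array weights, and without wild type marrow 1 (0.42) or deficient marrow 1 (0.36). Siglec1, a sialic acid receptor, was lower by 0.39 on the log2 scale (SE 0.11). Mrc1, the mannose receptor, averaged 6.48 ± 0.91 in tumours (SD, n = 24) and 7.33 ± 0.51 in marrow (SD, n = 5), a difference of -0.80 that was not called. Without wild type tumour 1 the Mrc1 difference was called (-0.92, limma adjusted p = 0.0431). Lyve1, a hyaluronan receptor also of lymphatic endothelium, Timd4, a phosphatidylserine receptor, and Vsig4, a complement receptor, had means under 5 in both tissues, in the same low range, and none was called.

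Of the 5 measured monocyte-type genes, 4 were lower in tumours and 1 was higher. Cd14, a co-receptor for lipopolysaccharide, ran from 4.47 to 7.29 in tumours (median 5.27), against 8.33, 8.24 and 9.40 in deficient marrow and 8.91 and 8.21 in wild type marrow. No tumour reached the lowest marrow sample, and the difference was -2.93 (SE 0.38, 7.62-fold lower, limma adjusted p = 7.28e-08). Lyz2, which encodes lysozyme of myeloid cells, ran from 10.43 to 12.61 in tumours (median 11.55), against 13.53, 13.56 and 13.47 in deficient marrow and 13.25 and 13.58 in wild type marrow. Its groups did not overlap either, and the difference was -1.87 (SE 0.21). Lyz1 differed by -1.17 (SE 0.16), but its chosen probe set may also bind Lyz2, with which it correlated at r = 0.98 across the 24 tumours. Another probe set of Lyz1 had a mean of only 3.29, so the Lyz1 value is uncertain. Clec7a, which encodes the beta-glucan receptor dectin-1, was lower by 1.52 on the log2 scale (SE 0.39), with 22 of 24 tumours below all marrow samples. Clec4n, which encodes dectin-2, a receptor for fungal mannans, went the other way. It ran from 6.63 to 9.38 in tumours (median 7.89), against 6.75, 6.58 and 6.34 in deficient marrow and 7.28 and 6.86 in wild type marrow. All tumours but deficient tumour 9 lay above the marrow samples, and the difference was 1.26 (SE 0.25, 2.39-fold higher, limma adjusted p = 6.46e-05).

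**Figure D2:**
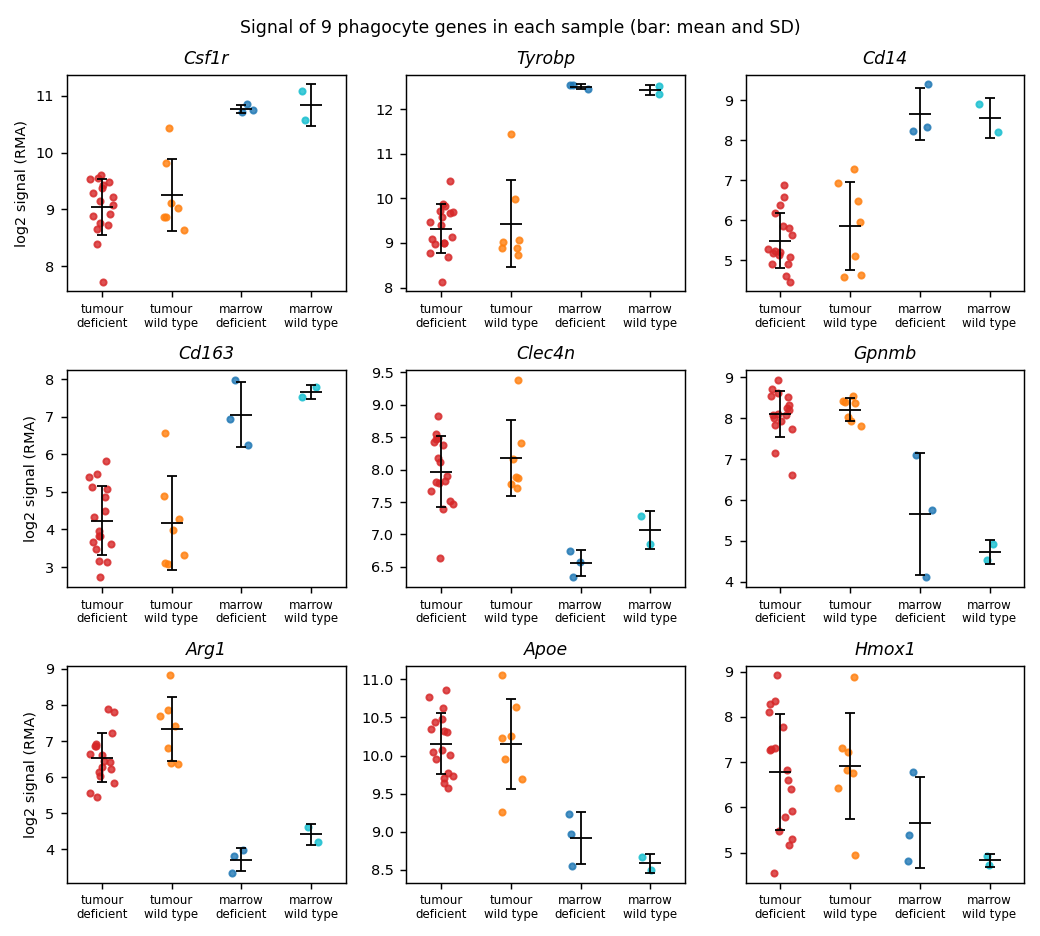
Log2 signal of 9 phagocyte genes in each sample, with tumours left of marrow and deficient left of wild type samples; bars give the mean and SD of each group. All tumours lie below all marrow samples for Csf1r, Tyrobp and Cd14 and above them for Arg1 and Apoe, while Hmox1 spreads over more than 4 log2 units among tumours.

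Resident-type and monocyte-type genes were set against each other in every sample. The mean of the 8 resident-type genes minus the mean of the 5 monocyte-type genes depends on the probes, so only its change between samples is read. It ran from -4.88 to -3.74 in deficient tumours (median -4.43) and from -4.78 to -3.53 in wild type tumours (median -4.40), against -5.27, -4.65 and -5.58 in deficient marrow and -5.10 and -5.05 in wild type marrow. Tumours were thus mostly higher in this difference, with overlap at deficient marrow 2. Of the resident-type genes, Cd163, Lyve1, Timd4, Vsig4 and Siglec1 had tumour means under 5, in the low range where RMA compresses differences. The monocyte-type genes include Lyz1, whose value is uncertain. The part of these limits in the shift was not tested. The resident-type and the monocyte-type mean both averaged lower in tumours. The resident-type mean averaged 4.94 ± 0.44 in tumours (SD, n = 24) and 5.40 ± 0.32 in marrow (SD, n = 5), and the monocyte-type mean 9.26 ± 0.43 in tumours and 10.53 ± 0.04 in marrow, where no tumour, the highest at 10.36, reached the lowest marrow sample at 10.48. Among tumours the difference did not separate the genotypes.

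The Fc receptor and adaptor genes were lower in tumours for 5 of 6. Tyrobp, which encodes the signalling adaptor DAP12, ran from 8.13 to 11.44 in tumours (median 9.12), against 12.45, 12.54 and 12.54 in deficient marrow and 12.35 and 12.52 in wild type marrow. Even wild type tumour 1, the highest, stayed below the marrow samples, and the difference was -3.09 (SE 0.31, 8.54-fold lower, limma adjusted p = 3.64e-10). Fcer1g, the gamma chain shared by activating Fc receptors, ran from 6.84 to 11.02 in tumours (median 8.36), against 10.95, 11.09 and 11.04 in deficient marrow and 10.67 and 11.26 in wild type marrow. Wild type tumour 1 was the 1 tumour inside the marrow range, and the difference was -2.55 (SE 0.36). The activating receptor Fcgr3 differed by -2.32 (SE 0.22) and the inhibitory receptor Fcgr2b by -1.46 (SE 0.11), both without overlap. The other probe sets of Fcgr2b gave -2.90, -2.39, -1.79 and, at a mean of only 2.42, -0.115, so the size of its difference depends on the probe set. Fcgr1, the high-affinity receptor for IgG, differed by -1.05 (SE 0.31), and lost the call in wild type samples alone (limma adjusted p = 0.304) and without wild type marrow 2. Trem2, a lipid receptor that signals through Tyrobp, averaged 5.56 ± 0.35 in tumours (SD, n = 24) and 5.30 ± 0.18 in marrow (SD, n = 5) and was not called, although it was without deficient tumour 17 (0.32). The receptor Trem2 thus stood at 0.29 and its adaptor Tyrobp at -3.09.

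Of the 4 genes listed as scavenger and TAM genes, Msr1, Marco, Axl and Gas6, Msr1 alone was called. The TAM receptor Mertk was counted with the resident-type genes above, where it was called higher in tumours. Msr1, which encodes scavenger receptor A, ran from 6.78 to 8.90 in tumours (median 7.31), against 6.87, 6.17 and 7.33 in deficient marrow and 6.44 and 7.10 in wild type marrow, and 10 of 24 tumours lay above all marrow samples. Its difference was 0.64 (SE 0.23, limma adjusted p = 0.0142), but the gene's 4 probe sets went both ways and their mean gave -0.15. The call was also lost in deficient samples alone, and without wild type marrow 1 or deficient marrow 2. Marco, another scavenger receptor, averaged 5.49 ± 0.91 in tumours (SD, n = 24) and 4.83 ± 0.28 in marrow (SD, n = 5), with 13 tumours above and 3 below all marrow samples. Its difference of 0.80 was not called with all samples, and was without wild type tumour 2 (0.89) or wild type tumour 7 (0.92). The TAM receptor Axl and the TAM ligand Gas6 had differences of -0.34 and -0.23, within the spread between samples.

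Of the 5 lysosomal genes 2 were higher in tumours, 1 was lower and 2 were not called. Gpnmb, a glycoprotein of lysosome-rich macrophages that melanocytes also make, ran from 6.6 to 8.94 in tumours (median 8.16), against 5.76, 4.11 and 7.11 in deficient marrow and 4.94 and 4.52 in wild type marrow. Only deficient tumour 17, the lowest, fell within the marrow range, which deficient marrow 3 set. The difference was 2.96 (SE 0.31, 7.79-fold higher, limma adjusted p = 7.55e-10). Lgmn, which encodes the protease legumain, ran from 8.46 to 9.59 in tumours (median 8.96), against 8.33, 8.10 and 8.15 in deficient marrow and 8.10 and 7.86 in wild type marrow. All tumours lay above all marrow samples, which held for 3 members (7.69%, against 20.9% of all genes), and the difference was 0.87 (SE 0.14). Ctss, cathepsin S of antigen presentation, ran from 8.71 to 10.73 in tumours (median 9.33), against 10.81, 10.88 and 11.01 in deficient marrow and 11.10 and 11.19 in wild type marrow, again without overlap but downwards (difference -1.57, SE 0.24). Ctsb and Ctsd, the broadly expressed cathepsins B and D, had differences of -0.14 and -0.05 and were not called. The other probe sets of Ctsb went both ways, at 0.44, -0.16, -0.66 and -0.83.

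Arg1, Apoe and Hmox1 were higher in tumours and Slc11a1 and Nos2 lower. Arg1, which encodes arginase 1, ran from 5.46 to 8.82 in tumours (median 6.62), against 3.35, 3.83 and 3.97 in deficient marrow and 4.63 and 4.21 in wild type marrow. The groups did not overlap, and the difference was 2.88 (SE 0.34, limma adjusted p = 9.69e-09), with the marrow values in the low range where RMA compresses differences. Apoe, the lipid carrier apolipoprotein E, ran from 9.26 to 11.05 in tumours (median 10.15), against 8.96, 9.23 and 8.55 in deficient marrow and 8.67 and 8.50 in wild type marrow, a difference of 1.41 (SE 0.21), also without overlap. Hmox1, which encodes haem oxygenase 1, was higher by 1.60 (SE 0.58), with 13 of 24 tumours above all marrow samples and 1 below. Its call was lost in deficient samples alone (1.12, limma adjusted p = 0.169), with array weights and without wild type marrow 2. Slc11a1, the metal transporter NRAMP1 of phagosomes, ran from 5.36 to 8.63 in tumours (median 6.39), against 7.94, 8.17 and 8.02 in deficient marrow and 8.14 and 8.26 in wild type marrow. Only wild type tumour 1 lay above the marrow samples, the other 23 below, and the difference was -1.53 (SE 0.30). Nos2, inducible nitric oxide synthase, had means under 5 in both tissues and a difference of -0.30 (SE 0.10), a call lost in deficient samples alone, with array weights and without wild type marrow 1 (-0.18).

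Other genes of the pathway were counted over lists by name, beside 42.2% of all genes called lower in tumours and 34.2% called higher. Of 6 growth factor and receptor genes, 6 were lower in tumours, Csf3r by 4.99, Csf2rb by 3.99 and Flt3 by 3.04 on the log2 scale. Of 9 measured transcription factor genes of the lineage, 7 were lower, with Irf8 at -3.53, Klf4 at -3.18 and Spi1 at -2.81, and 0 were higher. All 9 measured genes of a second monocyte list were lower, Chil3 by 9.17, Ifitm6 by 8.95 and Plac8 by 5.62, and neutrophils or their precursors also express many of these. A second macrophage list of 21 measured genes held 15 lower genes, among them the phagocyte oxidase subunits Ncf1 (-6.16) and Ncf4 (-5.40) and the integrin Itgam (-5.38). Its 4 higher genes included C1qa (1.41, SE 0.24) and C1qb (1.19, SE 0.25), subunits of complement C1q that macrophages make, and Ms4a7 (1.39, SE 0.23). C1qa ran from 8.49 to 10.58 in tumours (median 9.32) and from 7.44 to 8.59 in marrow (median 7.82). Markers of endothelium, fibroblasts and neuroblasts were higher in tumours for 4 of 8, 4 of 7 and 7 of 7 measured genes. Called lower among them were Tie1 of endothelium (-0.41) and Pdgfra of fibroblasts (-1.34). Gpnmb, Apoe, Axl, Gas6, Hmox1 and the cathepsins are also made by such cells, whose part in the differences was not tested.

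Promoter sequence is shown for 4 members picked by hand, Laptm5 and Ctss (lower) and Lgmn and Gpnmb (higher), so their matches do not stand for all members. The windows are those of RefSeq, 250 bases before to 50 after a start site in GRCm38.p6, and 28 members had at least 1. Capitals mark GAGGAA on either strand, the core that PU.1 binds, or the palindrome CACGTG, which factors of the MITF and TFE family bind in lysosomal genes. Laptm5 lies on the plus strand at chr4:130913066-130913365 and Ctss on the plus strand at chr3:95526536-95526835. Lgmn lies on the minus strand at chr12:102439043-102439342, which is 1 of 2 windows of that gene, and Gpnmb on the plus strand at chr6:49036268-49036567.
Laptm5: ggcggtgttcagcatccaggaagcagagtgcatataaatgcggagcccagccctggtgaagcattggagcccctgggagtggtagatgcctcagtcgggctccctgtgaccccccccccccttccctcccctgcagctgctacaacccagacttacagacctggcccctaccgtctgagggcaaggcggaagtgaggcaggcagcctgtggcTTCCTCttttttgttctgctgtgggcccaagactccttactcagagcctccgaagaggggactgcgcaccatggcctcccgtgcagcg
Ctss: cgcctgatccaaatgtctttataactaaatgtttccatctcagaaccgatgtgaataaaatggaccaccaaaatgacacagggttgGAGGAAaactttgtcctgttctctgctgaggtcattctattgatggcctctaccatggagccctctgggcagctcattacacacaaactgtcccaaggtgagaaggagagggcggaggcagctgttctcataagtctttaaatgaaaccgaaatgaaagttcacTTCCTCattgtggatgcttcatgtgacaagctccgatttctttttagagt
Lgmn: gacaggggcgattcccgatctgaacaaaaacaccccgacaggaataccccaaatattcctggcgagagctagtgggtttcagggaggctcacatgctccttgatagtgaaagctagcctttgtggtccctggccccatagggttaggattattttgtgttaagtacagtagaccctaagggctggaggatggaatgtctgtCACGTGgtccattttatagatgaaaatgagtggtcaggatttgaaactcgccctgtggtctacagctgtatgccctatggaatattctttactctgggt
Gpnmb: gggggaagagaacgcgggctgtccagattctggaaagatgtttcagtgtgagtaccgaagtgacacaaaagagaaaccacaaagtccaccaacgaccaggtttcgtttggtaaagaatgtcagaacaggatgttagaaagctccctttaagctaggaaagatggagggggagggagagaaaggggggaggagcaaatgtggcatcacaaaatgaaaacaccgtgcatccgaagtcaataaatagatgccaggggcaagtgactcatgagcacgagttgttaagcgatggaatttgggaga
The core GAGGAA, with its reverse complement TTCCTC, was found at -38 in Laptm5 and at -164 and 1 in Ctss, counted from the start site. CACGTG was found at -49 in the Lgmn window shown, which lies inside the annotated gene, and Gpnmb held neither motif. The other Lgmn window, chr12:102439679-102439978, covers the annotated 5' end of the gene at 102439728 and also held neither. Of 27 measured members with a window, 14 held GAGGAA, among them 6 of 12 called lower and 1 of 5 called higher, against 31.3% of 27025 genes. CACGTG was in 2 of 27, Ctsd and Lgmn, against 8.09% of genes. A match of letters is a description and shows no binding.

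Within tumours, deficient and wild type samples were compared to see whether phagocyte genes followed the caspase-8 genotype. None of the 39 members was called, as none of 18193 genes was (0%). At an unadjusted p under 0.05 limma gave 1 member, Arg1, and 3.2% of all genes. The difference was below 0 for 29 of 39 members, against 48.1% of all genes, with a median of -0.12. That count rested on 1 sample: without wild type tumour 1 it was 17 of 39, with a median of 0.03. Without that tumour and deficient tumours 9 and 17, the 3 that stood apart (described below), it was 10 of 39, with a median of 0.11. These 3 were picked after the values were seen, and ranked 1, 24 and 22 in the mean over all members. Leaving out a high wild type tumour, alone or with low deficient tumours, raises the difference by construction. Neither the 17 nor the 10 of 39 is thus an independent check. Within the lower and higher title series the count below 0 was 33 and 22 of 39. Xist, an RNA of female cells, ran from 4.68 to 12.70 in deficient tumours (median 12.21) and from 4.47 to 12.47 in wild type tumours (median 5.37), so sex was unevenly spread over the genotypes. With the Xist signal as a covariate 29 of 39 members were below 0 and none was called.

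**Figure D3:**
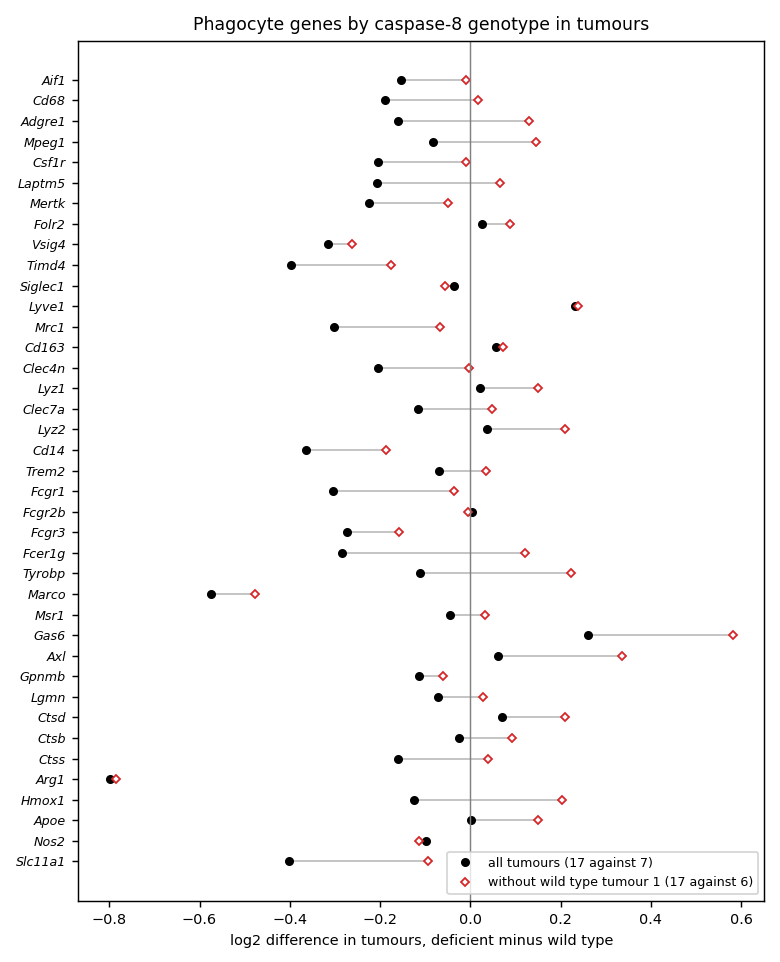
Log2 difference between deficient and wild type tumours for each of 39 phagocyte genes, with all tumours (filled circles) and without wild type tumour 1 (open diamonds). Leaving out 1 tumour moves most lineage-wide genes to or past 0, while Arg1 and Marco stay below it.

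Csf1r ran from 7.73 to 9.61 in deficient tumours (median 9.16) and from 8.63 to 10.43 in wild type tumours (median 9.03). The groups overlapped, and the difference of -0.21 (SE 0.23) was -0.01 without wild type tumour 1. Arg1 ran from 5.46 to 7.90 in deficient tumours (median 6.46) and from 6.37 to 8.82 in wild type tumours (median 7.43). Of the 7 wild type tumours 5 lay above the deficient median, with overlap, and the difference was -0.80 (SE 0.31, limma p = 0.0175, adjusted p = 0.9997). It was as large without wild type tumour 1, at -0.78, and -0.55 without wild type tumour 5, the highest sample. In the higher title series the Arg1 means were 6.30 in 10 deficient and 7.70 in 4 wild type tumours, a difference of -1.40. In the lower series they were 6.89 in 7 deficient and 6.87 in 3 wild type tumours, and whether the series differ was not tested. Marco ran from 4.27 to 6.99 in deficient tumours (median 5.16) and from 4.40 to 7.21 in wild type tumours (median 6.49), a difference of -0.58 (SE 0.37) within the spread between samples. Slc11a1 (-0.40, SE 0.28), Timd4 (-0.40, SE 0.27) and Fcgr3 (-0.27, SE 0.20) followed in order of p, and without wild type tumour 1 they were at -0.09, -0.17 and -0.16. Gas6, singled out after its values were seen, had a difference of 0.26 with all tumours and 0.58 without wild type tumour 1 (limma p = 0.00362, adjusted p = 0.998). RNA quality was read from control probes as signal at the 3' end minus signal at the 5' end. It was 0.76 ± 0.18 in deficient tumours (SD, n = 17) and 0.62 ± 0.15 in wild type tumours (SD, n = 7), and with it as a covariate 30 of 39 members were below 0.

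In bone marrow none of the 39 members was called, against 0.022% of all genes, and 4 had an unadjusted p under 0.05, against 4.05%. The difference was below 0 for 11 of 39 members, against 52.4% of all genes, but for 21 of 39 without wild type marrow 1, which held the lowest of the 5 marrow values for 14 members, and for 17 of 39 without deficient marrow 2. The 3 deficient and 2 wild type samples did not overlap for 9 of 39 members, against 17.2% of all genes. Vsig4 was at 3.10, 3.40 and 3.10 in deficient marrow and at 4.19 and 4.27 in wild type marrow. All deficient samples were lower, near the bottom of the scale, with a difference of -1.03 (SE 0.19, limma p = 0.000648, adjusted p = 0.9996). Arg1 was also low in both, with a difference of -0.70 (SE 0.25) in marrow, and Clec4n had -0.51 (SE 0.22), both without overlap. Gas6 was at 6.76, 6.80 and 6.36 in deficient marrow and at 6.03 and 6.16 in wild type marrow, a difference of 0.55 (SE 0.21). Hmox1 overlapped, with a difference of 0.84 (SE 0.50), and Csf1r had -0.06 (SE 0.21). The marrow genotypes did not overlap in Xist, at 11.64 to 12.23 in deficient and 5.11 to 6.20 in wild type samples, so sex and genotype cannot be told apart in marrow.

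Marrow samples of 1 genotype differed among themselves in the resident-type genes. Deficient marrow 2 held the highest of the 5 marrow values for 7 of 8 resident-type genes, all but Vsig4, and for 17 of 39 members. Deficient marrow 3 held the lowest value for Cd163, Mrc1, Lyve1 and Timd4, and the highest for Gpnmb (7.11), Hmox1 (6.78) and Cd14 (9.40). Mrc1, for example, was at 8.02 in deficient marrow 2 and 6.65 in deficient marrow 3, around 7.24 and 7.56 in wild type marrow.

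The genotype difference was also compared between the tissues by an interaction term. By limma 0 of 39 members were called, against 0.319% of all genes, and 0 had an unadjusted p under 0.05, against 7.83%. The term was below 0 for 32 of 39 members, against 47.3% of all genes, but for 19 of 39 without wild type tumour 1 and for 16 of 39 without the 3 tumours that stood apart. Wild type tumour 1 held the highest tumour value for 23 members and the 3 were picked by their values, so both counts fall by construction. The smallest p-values belonged to Gpnmb (difference of differences, tumour minus marrow, -1.04, SE 0.62), Timd4 (-0.87, SE 0.64) and Vsig4 (0.71, SE 0.59). For Gpnmb the genotype difference was -0.11 in tumours and 0.93 in marrow, and without deficient marrow 3 the difference of differences was -0.32.

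The SD over 24 tumours had a median of 0.53 among members and 0.19 among all genes, and it was above 0.5 for 23 of 39 members, against 6.91% of all genes. Hmox1 had the largest SD (1.23), followed by Lyve1 (1.03), Cd163 (1.0), Marco (0.91) and Mrc1 (0.91). Of the 5, Lyve1, Cd163 and Mrc1 are resident-type genes. Fcgr2b, by its chosen probe set (range 6.70 to 7.59), and Nos2 (3.71 to 4.45) varied little.

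A few tumours held most of the extremes. Wild type tumour 1 had the highest value for 23 of 39 members and the highest mean over all members, 8.41 against a median of 7.37. It also had the lowest neuroblast marker mean (9.12, median 9.97), the highest B cell marker mean (5.06, median 4.07) and the second highest fibroblast marker mean (9.40, median 7.81), whose part was not tested. Deficient tumour 9 had the lowest value for 17 members and the lowest mean over all members, 6.66, with endothelial markers at 5.38 (median 6.30). Deficient tumour 17 had the lowest value for 10 members, together with the highest neutrophil marker mean (5.34, median 4.11) and the lowest fibroblast marker mean (6.79). The map of all members over tumours shows these samples as columns.

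**Figure D4:**
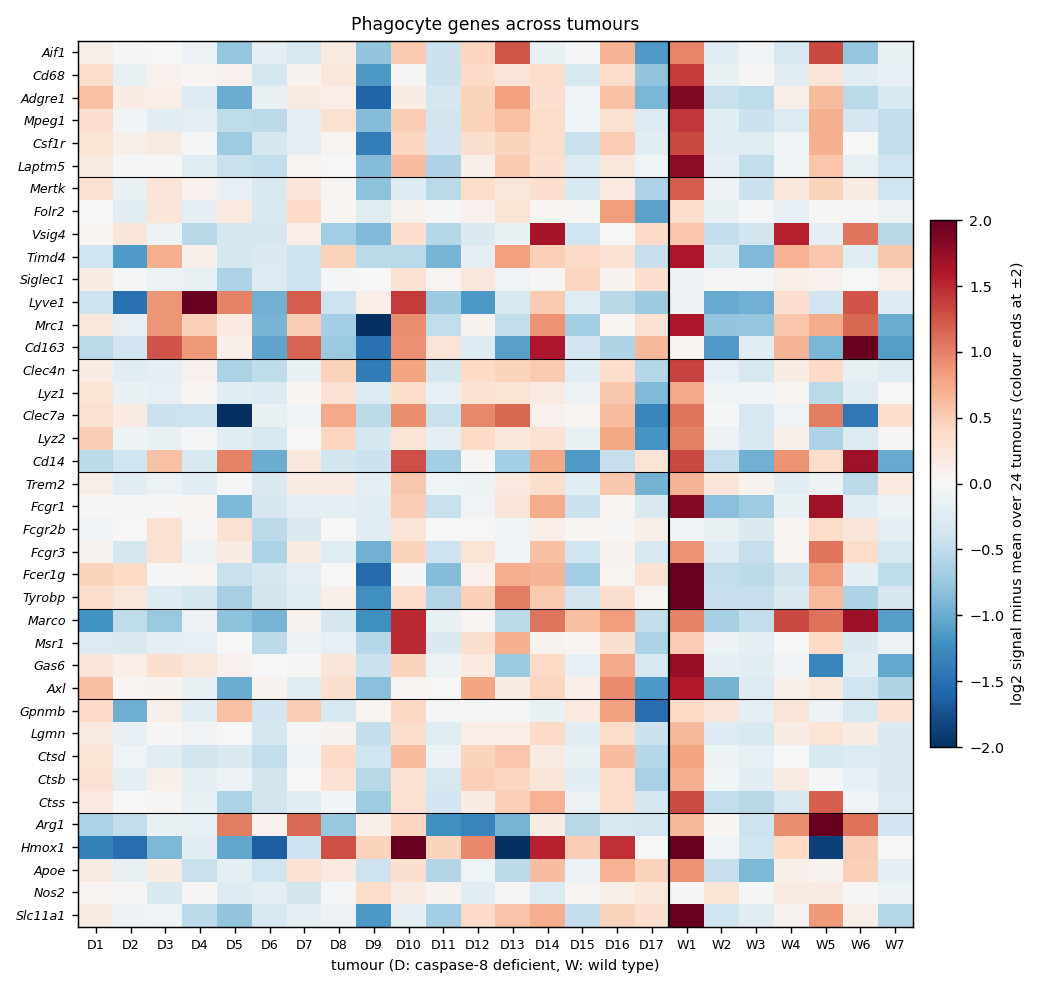
Log2 signal of 39 phagocyte genes in 24 tumours, each gene relative to its own mean; rows are grouped by role in the order lineage-wide, resident-type, monocyte-type, Fc receptor and adaptor, scavenger and TAM, lysosome, and lipid, enzyme and iron, and columns are deficient (D) left of wild type (W) tumours. Column W1 is red and column D9 blue in most rows, while Lyve1 and Cd163 lie near their mean in W1, and Lyve1, Hmox1 and Arg1 are not blue in D9.

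Members were then set against Csf1r across the 24 tumours, with Cdh5 of endothelium, Col1a1 of fibroblasts and S100a8 of neutrophils as other reference genes. The 155 pairs formed 1 family for Benjamini-Hochberg adjustment, with permutation p-values from 100000 resamples, of which 1e-05 is the smallest they can give. With Csf1r, 25 of 38 members correlated positively at an adjusted p under 0.05 and none negatively. The weakest of these had r = 0.53, which 5.79% of all genes reached across the same tumours, and the median r was 0.62 over the members and 0.01 over all genes. The count was 24 by Spearman, 20 in deficient tumours alone, and 18 without the 3 tumours that stood apart. It was 17 in the 10 tumours of the lower title series and 15 in the 14 of the higher series.

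The 4 closest members were Clec4n, Mpeg1, Adgre1 and Laptm5. Clec4n, which was higher in tumours than in marrow while Csf1r was lower, had r = 0.92 and rho = 0.86, each with a permutation p of 1e-05, the smallest 100000 resamples can give (adjusted p = 0.000129 for r). Without the 2 tumours farthest from the median of Csf1r its r was 0.82, and within the lower and higher title series 0.95 and 0.91. Mpeg1 had r = 0.92 and rho = 0.88, Adgre1 r = 0.91 and rho = 0.85, and Laptm5 r = 0.91 and rho = 0.93, all with the same permutation p of 1e-05. Without the 2 farthest tumours these were at r = 0.88, 0.81 and 0.89, and within the series between 0.88 and 0.96.

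The 4 members least like Csf1r were Arg1, Gpnmb, Lyve1 and Nos2. Arg1 had r = 0.11 (rho = 0.06, permutation p = 0.591 and 0.792, adjusted p = 0.716 for r), Gpnmb r = 0.10 (rho = 0.08, p = 0.632 and 0.709, adjusted p = 0.748), Lyve1 r = -0.03 (rho = 0.03, p = 0.902 and 0.891, adjusted p = 0.938) and Nos2 r = -0.13 (rho = -0.03, p = 0.552 and 0.899, adjusted p = 0.689). Arg1 and Gpnmb thus lay among the members furthest above marrow and had no detectable relation to Csf1r among these tumours. Without the 2 farthest tumours their r was 0.07 and 0.04, and within the lower and higher series -0.10 and 0.21 for Arg1 and 0.06 and 0.12 for Gpnmb. Cd163 likewise had r = 0.19, while Mrc1 had 0.74 and Mertk 0.84.

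**Figure D5:**
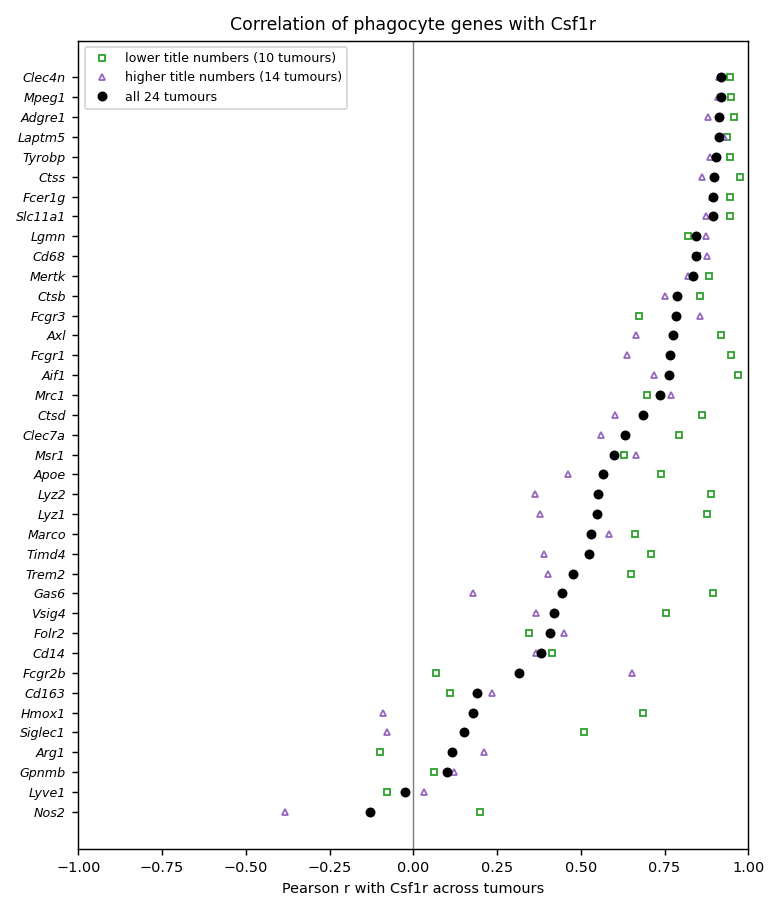
Pearson correlation of 38 phagocyte genes with Csf1r across all 24 tumours (filled circles), within the 10 tumours of the lower title number series (squares) and within the 14 of the higher series (triangles). The 3 values lie close together above 0.8 at the top, and apart for Gas6, Hmox1, Siglec1, Fcgr2b, Nos2, Lyz1 and Lyz2.

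With Col1a1, 10 of 39 members correlated positively at an adjusted p under 0.05, the weakest at r = 0.52, which 3.05% of all genes reached. The 3 highest were Folr2, Lyz1 and Lyz2. Folr2 had r = 0.73 (permutation p = 6e-05, adjusted p = 0.000517) and rho = 0.52 (permutation p = 0.0111, adjusted p = 0.0638), and r = 0.48 without the 2 tumours farthest from the median of Col1a1. Lyz1 had r = 0.70 (permutation p = 0.00029, adjusted p = 0.00221) and rho = 0.43 (permutation p = 0.0367, adjusted p = 0.14), and Lyz2 r = 0.70 (permutation p = 0.0003, adjusted p = 0.00221) and rho = 0.41 (permutation p = 0.0452, adjusted p = 0.152). Without the 2 farthest tumours they were at r = 0.52 and 0.50, and no rank correlation of the 3 passed the adjustment. Within the lower and higher title series r was 0.57 and 0.81 for Folr2, 0.69 and 0.73 for Lyz1, and 0.67 and 0.75 for Lyz2.

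With Cdh5 no member was called positively, and Arg1 was called negatively at an r that 0.989% of all genes reached (r = -0.51, permutation p = 0.0108, adjusted p = 0.0466, rho = -0.34, permutation p = 0.103), with r = -0.27 without the 2 farthest tumours. Within the lower and higher series that r was -0.58 and -0.59, and in deficient tumours alone -0.12. The highest with Cdh5 were Lyz1 (r = 0.50, rho = 0.43, permutation p = 0.0136 and 0.0369, adjusted p = 0.054 for r), Gas6 (r = 0.47, rho = 0.48, p = 0.0256 and 0.02) and Lyz2 (r = 0.45, rho = 0.39, p = 0.0293 and 0.0609). In the lower series these 3 were at r = -0.16, -0.14 and -0.10, and in the higher at 0.76, 0.65 and 0.68. Without the 2 farthest tumours they were at r = 0.36, 0.19 and 0.32. In the 17 deficient tumours alone the highest r with Cdh5 were those of Adgre1 (0.78), Aif1 (0.72) and Csf1r (0.69), and the lowest that of Nos2 (-0.27). In all 24 tumours the first 3 of these were at 0.29, 0.16 and 0.19. They were singled out after their values were seen, so the lack of calls over all tumours does not describe the deficient tumours.

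S100a8 ran from 3.12 to 8.02 in tumours (median 4.67), with its highest value in deficient tumour 17. Its median lies in the low range where RMA compresses differences. With S100a8 no member was called, and the part of its low signal in this was not tested. The 3 highest were Fcgr2b (r = 0.50, rho = 0.51, permutation p = 0.0124 and 0.0119, adjusted p = 0.0507 for r), Siglec1 (r = 0.46, rho = 0.42, p = 0.0264 and 0.0398) and Cd14 (r = 0.42, rho = 0.42, p = 0.0392 and 0.0387). Without the 2 farthest tumours these were at r = 0.46, 0.24 and 0.33, and in the lower and higher title series at 0.23 and 0.68 for Fcgr2b, 0.15 and 0.52 for Siglec1, and 0.02 and 0.62 for Cd14.

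Correlations between roles are given as descriptions, since their points share the same 24 tumours. Pairs of lineage-wide genes had a median r of 0.84 (15 pairs, range 0.70 to 0.94) and pairs of monocyte-type genes 0.60 (10 pairs). Pairs of resident-type genes had 0.21 (28 pairs, range -0.30 to 0.72), and pairs of a resident-type and a monocyte-type gene 0.31 (40 pairs). Of the resident-type genes, Cd163, Lyve1, Timd4, Vsig4 and Siglec1 had tumour means under 5, in the low range where RMA compresses differences. The part of this in the r of resident-type genes was not tested. Lineage-wide genes were paired with lysosomal genes at a median of 0.78, with Fc receptor and adaptor genes at 0.72, with monocyte-type genes at 0.61 and with resident-type genes at 0.40. The closest pair other than the lysozymes was Mpeg1 with Tyrobp, at r = 0.95.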

How the data were processed

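Per the submitters' processing notes, the authors made the deposited log2 values with RMA in Partek 6.6. RMA subtracts background, equalizes the distributions of arrays and sums up the probes of a probe set. Whether it was run once over the 29 arrays is not stated in the sources. It compresses low signals. Arrays give no depth, and their number limits the precision.

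Of 45101 probe sets, 34945 had 1 gene symbol in the platform annotation, 932 several and 9160, apart from 64 controls, none listed. Each of 18193 genes was read from its probe set of highest mean, with no filter on values. Symbols were matched by Entrez ID to RefSeq genes of GRCm38.p6, or kept.

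The members, role lists, marker lists and tests were chosen with earlier results of these data known. The labels for tissue and for genotype gave the groups. Two-sided limma tests (version 3.58.1, R 4.3.3) covered all genes, with Benjamini-Hochberg adjustment. A model of 4 groups gave tissue and interaction, and separate fits of tumours and of marrow gave genotype. The fits were tested on simulated data. Correlations used Python 3.11.15 with scipy 1.17.1, and figures matplotlib 3.10.9. By rule the text names every member for tissue, Csf1r and the 5 members of smallest p for each genotype comparison, 3 for the interaction, the 4 highest and 4 lowest correlations with Csf1r and the 3 highest with each other gene, and the 3 largest called differences in each direction of other pathway lists. Alternatives changed the probe set rule, centring, a mean log2 filter of 5, the weights of arrays, the variance model, covariates and samples, and leaving out 3 tumours together, leaving out the tumours of the lower title series and the Xist covariate were added after seeing the data.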

Additional observations from a re-analysis of the deposited data

Results flagged for a closer look

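Among the 7 wild type tumours, wild type tumour 1 stood far above the nearest other sample for 5 of 39 members tested, where chance gives about 1 in 20, or 1.95. Cd68 was at 9.36 there, against 8.24 in the next highest wild type tumour, and Folr2 at 5.56 against 5.23. Clec4n was at 9.38 against 8.40, Gas6 at 7.93 against 6.12, and Ctsd at 11.42 against 10.62. All 5 values belong to the same array, so they are not independent of each other. Of these members, Gas6 had a genotype difference in tumours of 0.26 with this sample and 0.58 without it, and the other values without it are in the report.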

How the results depend on the processing

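The number of members called between tissues was 27, and ran from 22 to 29 over all alternatives, with 6 to 10 higher and 14 to 20 lower in tumours. The genotype and interaction comparisons gave 0 called members under every alternative run. The number of members correlated with Csf1r was 25 with all tumours and 15 in the higher title number series (14 tumours), where fewer samples enter. In wild type samples alone the tissue difference of Timd4 was 0.25, of Vsig4 -0.049 and of Ctsd 0.013, each opposite in sign to that with all samples. With all probe sets of a gene averaged, the tissue difference of Msr1 was -0.15 and the marrow genotype difference of Csf1r 0.073. In tumours the Arg1 genotype difference was 0.022 in the lower title series, and that of Csf1r 0.089 without the 3 tumours that stood apart. With Csf1r, the correlation of Arg1 was -0.10 in the lower series and -0.30 in deficient tumours, that of Lyve1 0.033 in the higher series and 0.030 by Spearman, that of Nos2 0.20 in the lower series and 0.23 without the 3 tumours, and that of Gpnmb -0.066 without them. With Cdh5, the correlations of Lyz1, Gas6 and Lyz2 were -0.16, -0.14 and -0.10 in the lower series. Leaving out each sample in turn, the tissue difference of Aif1 ran from -0.31 to 0.12 and that of Timd4 from -0.43 to 0.0095, and the marrow genotype difference of Csf1r from -0.32 to 0.20. None of these reversed values passed the test, and the cause was not tested. No paired analysis was possible because the labels give the groups no shared replicate numbers. Low signal over background limits Lyve1, Timd4, Vsig4 and Nos2, and the 5 marrow samples limit every comparison with marrow. Where a fit without a marrow sample left 1 wild type sample, its spread was taken from the other samples.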

Other observations

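Ly6c1 and Ly6c2 share a probe set that was described but not tested. It was at 6.89 ± 0.81 in deficient tumours (SD, n = 17) and 6.68 ± 0.59 in wild type tumours (SD, n = 7), against 12.10 to 12.13 in 3 deficient and 11.89 to 12.09 in 2 wild type marrow samples. All 24 tumours, the highest at 7.90, lay below all marrow samples. The 2 genes cannot be told apart by it.

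Dendritic cell markers were lower in tumours for 6 of 7 measured genes, with Flt3 at -3.04, Siglech at -1.65 and Zbtb46 at -1.54, while the transcription factor gene Batf3 was higher by 0.62 (limma adjusted p = 0.0354). Of 6 osteoclast markers, Atp6v0d2, a subunit of the vacuolar proton pump that macrophages also make, was higher in tumours by 1.80 (SE 0.22, limma adjusted p = 1.83e-08). It averaged 7.29 ± 0.41 in tumours (SD, n = 24) and 5.54 ± 0.62 in marrow (SD, n = 5). Acp5 was lower by 0.56, Ocstamp by 0.36 and Dcstamp by 0.29 on the log2 scale. T and NK cell markers were lower for 6 of 6 and B cell markers for 5 of 5, against 42.2% of all genes.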
